A study of Mus musculus with 84 samples.

Results

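The comparison described here follows mouse fibroblasts that were reprogrammed with a constitutively active form of Smad3 (Smad3CA) from day 8 to day 10. Its members are the wells titled d8_Sm3CA and d10_Sm3CA with replicate numbers 1 to 3, which are 15 of the 84 wells of the series, 9 on day 8 and 6 on day 10. Wells of the same replicate number were summed to 1 library, so that each day had 3 libraries, and 6 of the 30 libraries of the series belong to the comparison. The study profiled RNA by STRT sequencing, which reads a tag at the 5′ end of each transcript, in 3 biological replicates of every group. The other groups are wild-type MEFs of strain 129, the TNG MKOS line of embryonic stem cells (ESCs), and reprogramming cells with Smad3CA or with a control vector on days 3, 6, 8 and 10. Both kinds of reprogramming cells came from transgenic MEFs in which doxycycline switches on the MKOS cassette (Oct4, Sox2, Klf4 and Myc) along with mOrange, taken from chimeric embryos and mixed with wild-type MEFs. They were infected with a retroviral vector for Smad3CA or, as control, for the blue fluorescent protein BFP, kept in ESC medium with LIF, vitamin C and doxycycline at 300 ng/ml, and sorted for mOrange. The sort kept transgenic cells of any stage, so each library averages over all of them. Reads of the vector and of the cassette cannot be told apart from those of the endogenous Smad3 and MKOS genes. The chimeric embryos were made with the TNG MKOS line, which has a GFP reporter at the start codon of Nanog. The study states that the targeted Nanog allele is thereby knocked out, in heterozygous form. Whether Nanog reads include transcripts of the targeted allele was not tested.

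Smad3 is a transcription factor that TGF-beta and activin receptors activate by phosphorylation, and the Smad3CA protein does not need that signal. In fibroblasts the pathway is known for switching on matrix and contractile genes, whereas in reprogramming cells the MKOS factors silence the fibroblast program and, late and in few cells, open the genes of the pluripotent state.

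The Smad3CA libraries held 2208394, 1973278 and 1885517 reads on day 8 and 1008596, 1349752 and 1012324 reads on day 10, given here and below in the order of replicates 1 to 3. Day 10 libraries were shallower and had 2 wells in place of 3. The control libraries of the same days held 1304562, 1413897 and 2296059 reads on day 8 and 1178845, 1139335 and 1434427 on day 10. Values below are normalized read counts, and a gene is called when its adjusted p in edgeR's quasi-likelihood test is under 0.05. Mitochondrial transcripts took 18.5 ± 1.74% of reads on day 8 and 23.1 ± 1.88% on day 10 in Smad3CA cells (mean ± SD, n = 3, two-sided exact p = 0.1 by permutation, and 3 against 3 libraries cannot give a smaller one). In control cells the shares were 18.4 ± 1.43% and 17.6 ± 1.51% (exact p = 0.5). Some libraries stood apart. Day 8 library 2 had mt-Atp8 in place of mt-Rnr2 as its most abundant gene and the lowest Gapdh value, 924 beside 1750 and 4007 in the other libraries of that day. Day 10 library 1 and control day 8 library 1 carried the most transcripts of brain cells, described near the end. In both series day 8 wells lay in plate rows D to F and day 10 wells in rows G and H, so that row and day cannot be told apart.

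Marker genes were checked against what the cells were said to be. The 10 ESC markers summed to 84.1, 106 and 104 normalized reads on day 8, to 1042, 1185 and 2319 on day 10, and to 33265, 54295 and 29883 in ESCs. Every day 10 library lay above every day 8 library, and Dppa5a was the most abundant of the 10 genes. The 10 fibroblast markers, led by Dcn, summed to 1717, 1855 and 1438 on day 8 and 1567, 1475 and 1215 on day 10. These sums overlapped between the days, below the 4535, 4195 and 5798 of MEFs and above the 4.57, 5.42 and 2.57 of ESCs. In control cells they were 1231, 1353 and 1562 on day 8 and 1227, 2492 and 2510 on day 10, where library 1 stood apart. In bulk RNA a smaller number of cells of a type and less RNA per cell cannot be told apart.

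Smad3 itself, which counts the vector too, stood at 77.9, 82.1 and 48.4 on day 8 and 47.7, 32.8 and 44.3 on day 10. All day 10 values lay below all day 8 values, but the difference was not called (log2 fold change -0.75, SE 0.30, adjusted p = 0.15). Control cells had 9.06, 8.44 and 7.16 on day 8 and 14.8, 21.5 and 25.4 on day 10, so that every control library lay below every Smad3CA library of its day. The difference between the series in the change of Smad3 was not called in the main fit of edgeR. It was called in 3 of 20 alternatives (log2 difference -2.31 to -1.90, adjusted p 0.0025 to 0.24). Smad2, the partner of Smad3 in the same pathway, had 81, 85.2 and 58.9 on day 8 and 70.1, 83 and 70.3 on day 10 with overlapping days (log2 fold change -0.01, SE 0.20, adjusted p = 0.99). Among the cassette genes Pou5f1, which encodes Oct4, rose from 83.4, 61.9 and 94.4 to 130, 139 and 118. All day 10 libraries lay above all day 8 libraries (log2 fold change 0.70, SE 0.21, adjusted p = 0.041), and the call was lost without day 8 libraries 1 and 2 and day 10 libraries 1, 2 and 3 (adjusted p 0.072, 0.22, 0.1, 0.14 and 0.069). Sox2 had 8.03, 11.6 and 20.2 on day 8 and 14, 20.8 and 20.8 on day 10, Klf4 had 14.2, 9.8 and 15.3 on day 8 and 16.8, 6.55 and 11.7 on day 10 and Myc had 4.33, 4.29 and 15.3 on day 8 and 14, 14.2 and 9.11 on day 10. The days of these other MKOS genes overlapped and 0 of the 3 were called by edgeR (adjusted p 0.52, 0.84 and 0.38), although Myc was called without day 8 library 3 (log2 fold change 1.52, adjusted p = 0.04). The median over the MKOS genes was 0.61 (0.33 without day 8 library 1), beside -0.42 in control cells.

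From day 8 to day 10 genes restricted to ESCs came up in the cells with Smad3CA, Dppa5a and Trh among them, while the genes that fell included the matrix gene Fbn1 and the chemokine Ccl7. Of 10237 genes tested, 497 were called (4.85%), of which 249 rose (2.43%) and 248 fell (2.42%), while the median log2 fold change over all genes was −0.01. The rises were the larger changes, with 158 genes over 2-fold and 26 over 8-fold, beside 98 and 7 among the genes that fell. The libraries of the days did not overlap for 232 of the 249 genes that rose and 235 of the 248 that fell, where 10.6% of all tested genes lay apart upward and 10.8% downward. The number of 497 called genes became 371, 244 and 684 without day 8 libraries 1, 2 and 3 and 268, 231 and 225 without day 10 libraries 1, 2 and 3. In control cells 246 genes were called over the same days (2.4%), and 162 rose (1.58%) and 84 fell (0.821%). Among the same genes the 162 became 73, 86, 101 and 83 without control day 8 libraries 1 and 2 and control day 10 libraries 2 and 3. The 84 falls became 31, 37 and 126 without control day 8 libraries 1, 2 and 3. They became 35 and 26 without control day 10 libraries 2 and 3. The difference between the series, the interaction of day and vector, was called for 19 genes (0.186%), 6 with the more positive change in Smad3CA cells (0.0586%) and 13 with the more negative (0.127%), beside 1130 genes at an unadjusted p under 0.05. With replicate numbers as a block that count was 40 in place of 19. It fell or grew with single libraries too, to 9 without control day 8 library 1, to 65, 10 and 11 without control day 10 libraries 1, 2 and 3, to 10 and 107 without day 8 libraries 2 and 3, and to 7 and 9 without day 10 libraries 1 and 3. Its direction moved as well, with 12 positive and 7 negative without day 10 library 2, 6 and 4 without control day 10 library 2, 5 and 4 without control day 8 library 1 or day 10 library 3, and 54 and 53 without day 8 library 3. The step before, from day 6 to day 8 in Smad3CA cells, had 684 called genes (6.68%), 305 higher (2.98%) and 379 lower (3.7%), and it shares the day 8 libraries with the step described here.

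Genes that separate ESCs from MEFs were shared out unevenly between the rises and the falls. Of 345 genes more than 4-fold higher in ESCs than in MEFs, 242 were tested, and 56 of these rose (23.1%) while 3 fell (1.24%), with a median log2 fold change of 0.67 beside −0.01 over all genes. They made up 22.5% of all genes that rose. Of 687 genes more than 4-fold lower in ESCs, 609 were tested, 8 rose (1.31%) and 32 fell (5.25%), beside 2.43% and 2.42% of all genes, with a median of −0.21 (−0.18 with 17 genes of 3 reads or fewer in a group set to their detection bound). In control cells the ESC-high genes had 32 rises, 1 fall and a median of 0.44, and the ESC-low genes 27 rises, 1 fall and a median of 0.29. Those 32 rises became 18 and 18 without control day 8 library 2 and control day 10 library 3. The 27 rises became 7, 13, 56, 6 and 7 without control day 8 libraries 1 and 2 and control day 10 libraries 1, 2 and 3, and the median of 0.29 became 0.12 without control day 10 library 2. The difference between the series was called for 0 of the ESC-high genes by edgeR (24 at an unadjusted p under 0.05 and 0 called by DESeq2, median 0.17) and for 4 of the ESC-low genes, all toward lower in Smad3CA cells (159 at an unadjusted p under 0.05 and 15 called by DESeq2, median −0.40). The 4 became 2, 8, 30, 1, 2, 19, 2 and 2 without control day 8 libraries 1 and 3, control day 10 libraries 1, 2 and 3, day 8 library 3 and day 10 libraries 1 and 3. From day 6 to day 8 the Smad3CA cells had 16 rises and 11 falls among ESC-high genes (median 0.26) and 36 rises and 17 falls among ESC-low genes (median 0.16). Without day 10 library 3 the 56 rises became 37 and the 32 falls 13. The falls also numbered 20 without day 8 library 2 and 18 without day 10 library 2.

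**Figure D1:**
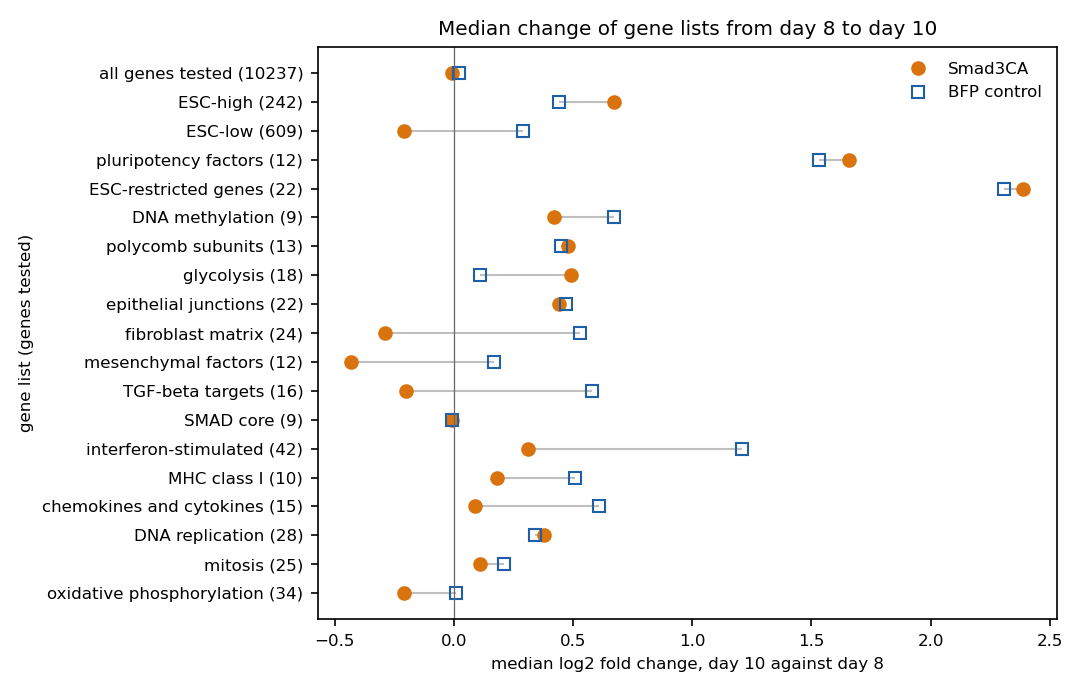
Median log2 fold change from day 8 to day 10 (horizontal axis) of gene lists (vertical axis, with the number of genes tested) in Smad3CA cells (filled circles) and BFP control cells (open squares). The ESC-restricted genes stood at 2.39 and 2.31 (the latter 1.51 with 6 genes at their bound), and the interferon-stimulated genes at 0.31 in Smad3CA cells and 1.21 in control cells.

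Of 20 listed pluripotency factors 12 were tested, 3 rose and 0 fell (25% called, beside 4.85% of all genes), and all 12 had a positive change (median 1.66). In control cells 4 rose and 0 fell (median 1.53, or 1.40 with genes of 3 reads or fewer at their bound). The 4 became 2, 2, 2 and 2 without control day 8 libraries 2 and 3 and control day 10 libraries 2 and 3. Zfp42 (Rex1), a zinc finger protein used as a marker of naive cells, had 44.5, 28.8 and 60.5 on day 8 and 182, 227 and 306 on day 10. All day 10 libraries lay above all day 8 libraries, with library 3 highest (log2 fold change 2.44, SE 0.26, adjusted p = 4.7e-08), and in control cells it also rose (log2 fold change 2.53, SE 0.30, adjusted p = 5.7e-07). Tfcp2l1, a factor of naive self-renewal, went from 12.4, 12.3 and 6.46 to 46.3, 71 and 99. Again the days did not overlap and library 3 was highest (log2 fold change 2.77, SE 0.43, adjusted p = 8.9e-05), whereas control cells had 13.6, 8.44 and 10.7 on day 8 and 12.3, 28.7 and 40.5 on day 10 and no call (adjusted p = 0.13), with a difference between the series that was not called either (adjusted p = 0.38). Sall4, a partner of Oct4, rose from 11.1, 11.6 and 8.07 to 28, 30.6 and 57.3. The days lay apart (log2 fold change 1.89, SE 0.43, adjusted p = 0.0068), but the call was lost without day 10 library 3 (adjusted p = 0.096, 0.0028 to 0.096 over 14 alternatives). Nanog, a central factor of the network, had 8.03, 2.45 and 5.65 on day 8 and 26.6, 19.7 and 9.11 on day 10. The days did not overlap, yet day 10 library 3 was lowest where it was highest for the other factors, and the change was not called (log2 fold change 1.76, SE 0.61, adjusted p = 0.087).

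The octamer ATTTGCAT, the sequence that Oct4 is known to bind, was looked for on both strands of RefSeq promoters, which run from 250 bases before to 50 bases after a gene's start (build GRCm38.p6). It was in 1.74% of 32851 promoters and in 1.59% of the 7601 matched promoters of tested genes. Among these it was in 1 of 173 of genes that rose (0.578%) and in 2 of 191 of genes that fell (1.05%). The 1 promoter among genes that rose was that of Zfp42 (chr8:43306960-43307259, minus strand), shown with the octamer in capitals because Zfp42 is itself a marker of the naive state. A match describes the letters and shows no binding.
Zfp42: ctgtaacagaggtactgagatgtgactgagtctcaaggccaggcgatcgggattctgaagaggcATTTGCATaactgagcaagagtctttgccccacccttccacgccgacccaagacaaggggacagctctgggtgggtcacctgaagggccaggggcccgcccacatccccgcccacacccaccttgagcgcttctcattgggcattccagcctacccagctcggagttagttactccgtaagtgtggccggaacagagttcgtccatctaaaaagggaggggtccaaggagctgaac

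Genes whose expression is restricted to ESCs and germ cells were prominent among the large rises. Of 25 listed genes 22 were tested, 14 rose and 0 fell, with a median log2 fold change of 2.39 in Smad3CA cells (the same with 3 genes at their bound). In control cells 11 rose and 0 fell, with a median of 2.31 that was 1.51 with 6 genes at their bound, and the difference between the series was called for 0 of the 22 by edgeR (3 at an unadjusted p under 0.05 and 0 called by DESeq2). From day 6 to day 8 in Smad3CA cells 1 rose and 1 fell (median 0.42, or 0.00 with 6 genes at their bound). Dppa5a, which encodes an RNA-binding protein of ESCs, had 9.89, 37.4 and 24.2 on day 8 and 589, 709 and 1606 on day 10. Each day 10 library was far above each day 8 library and library 3 was highest (log2 fold change 5.34, SE 0.41, adjusted p = 1.2e-11). Even so day 10 reached 2.95% of the ESC mean of 32823 ± 13627 (SD, n = 3). Trh, the gene of thyrotropin-releasing hormone, went from 3.71, 7.35 and 11.3 to 279, 168 and 311. The days lay apart (log2 fold change 5.11, SE 0.49, adjusted p = 4.1e-09), and day 10 stood at 48% of the ESC mean. Tdgf1 (Cripto), a co-receptor for Nodal, had 0, 6.13 and 0.807 on day 8 and 116, 61.2 and 173 on day 10. Day 8 libraries held 0, 10 and 1 reads, and all day 10 libraries were higher (log2 fold change 5.52, SE 0.58, adjusted p = 4.5e-08).

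For several of these genes day 8 was at or near zero. Dppa3 (Stella), known from germ cells and the zygote, had no read in any day 8 library and 36.4, 76.5 and 105 normalized reads on day 10. It was thus at least 35.7-fold higher on day 10, counted against a floor of 3 reads per library, which is 2.04 normalized reads (adjusted p = 1.9e-07, but 0.066 and no call with DESeq2's Wald test, the highest of 14 alternatives, from 4.7e-24). Eras, a Ras-like protein of ESCs, likewise had no read on day 8 and 9.81, 15.3 and 18.2 on day 10, at least 7.09-fold higher (adjusted p = 0.0029). Dppa2 had 1 read in the whole day 8 group and 12.6, 15.3 and 37.8 normalized reads on day 10. The ratio was 97.4 with a 95% counting interval of 16.7 to 3920 (adjusted p = 2.9e-04). Dppa4, its neighbour and partner in chromatin, went from 0, 3.68 and 0.807 to 26.6, 18.6 and 31.3, with the days apart (log2 fold change 3.95, SE 0.75, adjusted p = 0.0011). In control cells Dppa3 also went from no read to 30.9, 7.17 and 12.2. At day 10 these genes were still far from ESCs, at 26.2% of the ESC mean for Dppa3, 7.65% for Eras, 4.83% for Dppa2 and 4.05% for Dppa4.

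The other members that rose were spread over several roles, Jarid2 and Slc2a3 being described with other genes of their kind. Gdf3, a ligand of the TGF-beta family, had 9.89, 2.45 and 20.2 on day 8 and 105, 73.2 and 92.5 on day 10. Its days lay apart (log2 fold change 3.10, SE 0.45, adjusted p = 3.2e-05) and day 10 was 25.3% of the ESC mean. Fbxo15, a target of Oct4 and Sox2 often used as a reporter, went from 4.33, 6.13 and 2.42 to 32.2, 43.7 and 48.2 (log2 fold change 3.21, SE 0.49, adjusted p = 7.6e-05), and Tcl1, a cofactor of Akt, from 9.89, 4.9 and 4.84 to 49.1, 42.6 and 44.3 (log2 fold change 2.76, SE 0.51, adjusted p = 1.0e-03). In both, all day 10 libraries were above all day 8 libraries. Mylpf, a myosin light chain, went from 1.85, 5.51 and 1.61 to 33.6, 29.5 and 46.9 (log2 fold change 3.53, SE 0.65, adjusted p = 7.7e-04), also without overlap. L1td1, an RNA-binding protein derived from a LINE-1 element, was already at 77.9, 66.8 and 54.9 on day 8 and reached 130, 149 and 184 (log2 fold change 1.21, SE 0.23, adjusted p = 0.0011), which took it from 14.9% to 34.6% of the ESC mean.

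**Figure D2:**
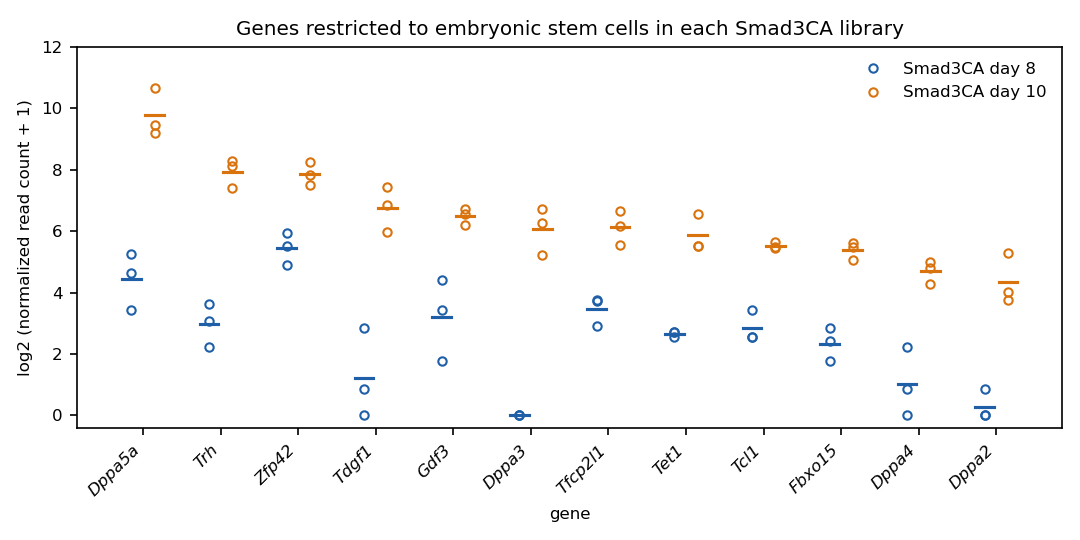
log2 of normalized read count plus 1 (vertical axis) of 12 genes in each Smad3CA library on day 8 (blue) and day 10 (orange), with horizontal bars at the means of these log2 values. For all 12 genes the day 10 libraries lie above the day 8 libraries, as for Dppa3 with 0 reads in all 3 day 8 libraries.

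Some of the genes that rose lie near each other in the genome (RefSeq, GRCm38.p6). Gdf3, Dppa3 and Slc2a3 are on chromosome 6, with 16.3 kb between Gdf3 (chr6:122605403-122610087) and Dppa3 and 97.5 kb between Dppa3 and Slc2a3, where Nanog lies, which was not called. Dppa4 and Dppa2 are 16 kb apart on chromosome 16, where Dppa4 spans chr16:48283735-48294292. Rhox5 and Rhox6, homeobox genes of the placenta and germ line, are 18.2 kb apart on chromosome X. Rhox6 had no read on day 8 and 18.2, 61.2 and 88.5 on day 10, at least 27.5-fold higher (adjusted p = 4.1e-06, but 0.13 with the Wald test, the highest of 14 alternatives, from 8.8e-19), with library 1 lowest. Rhox5 went from 11.7, 0.613 and 4.84 to 43.5, 20.8 and 20.8, with the days apart (log2 fold change 2.27, SE 0.62, adjusted p = 0.027). The call of Rhox5 was lost without day 8 libraries 2 and 3 and day 10 libraries 1, 2 and 3 (adjusted p 0.15, 0.059, 0.18, 0.053 and 0.052). Of 25 extraembryonic and germ line genes, 10 were tested, and besides these neighbours none was called (2 rises, 0 falls, 20% called beside 4.85% of all genes, median 0.47). In control cells 1 of the 10 rose (median 0.15).

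Genes that write, remove or protect DNA methylation rose in part. Of 9 tested genes 3 rose and 0 fell (33.3% called, beside 4.85% of all genes, median 0.42), while in control cells 2 rose and 1 fell (median 0.67). The 2 rises became 1, 0 and 1 without control day 8 libraries 1, 2 and 3. They became 0 and 0 without control day 10 libraries 1 and 3. The 1 fall became 0 without each control library, and the median of 0.67 became 0.33 without control day 8 library 2. Tet1, which oxidizes methylcytosine, had 5.56, 5.51 and 4.84 on day 8 and 44.9, 44.8 and 92.5 on day 10. The days lay far apart and library 3 was highest (log2 fold change 3.48, SE 0.47, adjusted p = 6.4e-06), and control cells had 12.5, 7.39 and 6.56 on day 8 and 37, 21.5 and 31.1 on day 10 (log2 fold change 1.80, SE 0.47, adjusted p = 0.029). That control call was lost in the omissions that left 0 control rises. Zfp57, which protects methylation at imprinted genes, went from 16.7, 18.4 and 18.6 to 75.7, 49.2 and 43, with library 1 highest on day 10 and no overlap (log2 fold change 1.64, SE 0.29, adjusted p = 5.2e-04). Tet2 rose from 47, 38 and 37.9 to 54.7, 63.4 and 99 (log2 fold change 0.82, SE 0.25, adjusted p = 0.046), a call that was lost with the replicates as a block (adjusted p = 0.058) and without day 8 libraries 1, 2 and 3 and day 10 libraries 2 and 3 (adjusted p 0.057, 0.15, 0.085, 0.072 and 0.32).

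Subunits of the polycomb complexes, which silence developmental genes, gave 4 rises and 0 falls among 13 tested (30.8% called, beside 4.85% of all genes, median 0.48). In control cells edgeR called 0 (4 at an unadjusted p under 0.05, median 0.45). The difference between the series was called for 0 (0 at an unadjusted p under 0.05 and 0 called by DESeq2, median 0.12). Jarid2, a partner of the methyltransferase complex that is high in ESCs, had 20.4, 24.5 and 17.8 on day 8 and 36.4, 53.5 and 88.5 on day 10. No day 10 library was as low as day 8, and library 3 was highest (log2 fold change 1.50, SE 0.33, adjusted p = 0.0055). Suz12, a core subunit of that complex, went from 43.9, 52.1 and 29.9 to 78.5, 90.7 and 109 (log2 fold change 1.14, SE 0.27, adjusted p = 0.0093). Phc1 and the ubiquitin ligase Rnf2, of the other complex, went from 22.9, 17.2 and 17.8 to 47.7, 45.9 and 65.1 (log2 fold change 1.45) and from 54.4, 28.2 and 45.2 to 81.3, 100 and 79.4 (log2 fold change 1.04). In all 4 genes the days lay apart. Jarid2 lost its call without day 10 library 3 (adjusted p = 0.095, 3.2e-04 to 0.095 over 14 alternatives), and Suz12 without day 10 library 3 (adjusted p = 0.063, 0.0018 to 0.063 over 14 alternatives). Phc1 (adjusted p = 0.022) lost it without day 8 library 2 and day 10 library 3 (adjusted p 0.084 and 0.11), and Rnf2 (adjusted p = 0.027) without day 8 library 2 and day 10 libraries 1, 2 and 3 (adjusted p 0.16, 0.056, 0.12 and 0.055).

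Genes of glucose uptake and glycolysis rose in part. Of 18 tested genes of glycolysis 5 rose and 0 fell (27.8% called, beside 4.85% of all genes), 17 had a positive change and the median was 0.49. In control cells 3 rose and 0 fell (median 0.11), with the difference between the series called for 0 by edgeR (3 at an unadjusted p under 0.05 and 0 called by DESeq2). Slc2a1 (Glut1), the general glucose transporter, had 51.9, 85.2 and 66.2 on day 8 and 304, 333 and 264 on day 10. Each day 10 library was above each day 8 library (log2 fold change 2.15, SE 0.30, adjusted p = 1.2e-05). In control cells it rose too (log2 fold change 1.59, SE 0.32, adjusted p = 0.0022), there with day 10 library 1 at 284 beside 81.2 and 81. Slc2a3 (Glut3), the transporter of ESCs and neurons, went from 39.6, 71.1 and 45.2 to 133, 145 and 167, with no overlap (log2 fold change 1.51, SE 0.23, adjusted p = 6.2e-05). The enzymes that were called changed less. Pfkl went from 14.2, 25.1 and 12.1 to 37.9, 51.3 and 43, Aldoa from 599, 640 and 567 to 897, 998 and 742 and Tpi1 from 218, 229 and 392 to 464, 589 and 388 (log2 fold changes 1.35, 0.55 and 0.79, adjusted p 0.023, 0.043 and 0.044). Only Tpi1 of these overlapped between the days, through day 8 library 3. Pfkl lost its call without day 8 libraries 1 and 3 and day 10 libraries 2 and 3 (adjusted p 0.08, 0.06, 0.1 and 0.058). Aldoa lost it without day 8 libraries 1, 2 and 3 and day 10 libraries 1 and 2 (adjusted p 0.094, 0.07, 0.081, 0.11 and 0.19), and Tpi1 without day 8 libraries 1 and 2 and day 10 libraries 1 and 2 (adjusted p 0.18, 0.19, 0.092 and 0.22).

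Epithelial genes rose in part. Of 22 tested genes of cell junctions 4 rose and 0 fell (18.2% called, beside 4.85% of all genes, median 0.44). In control cells also 4 rose and 0 fell (median 0.47). Cldn6, a claudin of embryonic epithelia and ESCs, had 10.5, 7.35 and 10.5 on day 8 and 49.1, 65.5 and 28.6 on day 10. The days lay apart (log2 fold change 2.34, SE 0.48, adjusted p = 0.0023), and it rose in control cells too (log2 fold change 2.61, SE 0.50, adjusted p = 0.0014). Dsg2, a desmosomal cadherin, went from 29.7, 25.1 and 25.8 to 61.7, 66.6 and 75.5, also apart (log2 fold change 1.34, SE 0.32, adjusted p = 0.01). Cldn4 went from 22.2, 15.3 and 28.3 to 67.3, 42.6 and 41.7 and the membrane protease St14 from 19.8, 29.4 and 19.4 to 50.5, 43.7 and 65.1 (log2 fold change 1.21 and 1.21, adjusted p 0.042 and 0.016). Dsg2 lost its call without day 10 library 3 (adjusted p = 0.054, 0.0025 to 0.054 over 14 alternatives) and St14 without day 8 library 1 and day 10 library 3 (adjusted p 0.065 and 0.1). Cldn4 lost it without day 8 libraries 1 and 2 and day 10 libraries 1, 2 and 3 (adjusted p 0.086, 0.19, 0.21, 0.069 and 0.066). E-cadherin (Cdh1), a junction protein that reprogramming cells gain, was already at 247, 207 and 147 on day 8 and had 229, 246 and 233 on day 10, with overlap and no call (adjusted p = 0.53).

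Of 20 tested keratins and cornified envelope genes 1 rose and 1 fell (10% called, beside 4.85% of all genes). The median was 0.29, but 0.10 without day 10 library 1. In control cells 2 rose and 0 fell (median 0.45, or 0.42 with 1 gene at its bound). Krt18, a keratin of simple epithelia, went from 6.8, 1.84 and 29.9 to 30.8, 35 and 62.5 (log2 fold change 1.81, SE 0.51, adjusted p = 0.032). Sprr2k, of the cornified envelope, fell from 9.89, 7.35 and 2.42 on day 8 to no read in any day 10 library (adjusted p = 0.0096). Krt18 lost its call without day 8 libraries 1 and 2 and day 10 libraries 2 and 3 (adjusted p 0.13, 0.17, 0.055 and 0.18), and Sprr2k without day 10 library 2 (adjusted p = 0.055, 0.0027 to 0.055 over 12 alternatives). Of the 8 keratinocyte markers, whose sum was 149, 118 and 172 on day 8 and 198, 150 and 59.9 on day 10 and was led by Krt14, the defining Trp63, Lor and Krt1 were at 0 in all 6 libraries.

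In the pathway of Smad3 itself single targets were called. Of 9 tested genes of the SMAD core 0 were called in either series by edgeR, with 3 at an unadjusted p under 0.05 and 0 called by DESeq2 in Smad3CA cells and a median of -0.01 that became 0.01 with DESeq2's size factors. Control cells had 1 rise without control day 8 library 3 or control day 10 library 2. The difference between the series was called for 0 of these genes. It had 1 call, toward lower in Smad3CA cells, without control day 10 library 1 or day 8 library 3. Of 16 tested TGF-beta targets 2 rose and 0 fell (12.5% called, beside 4.85% of all genes, median -0.20). In control cells 3 rose and 0 fell (median 0.58), with 0 called for the difference between the series by edgeR (5 at an unadjusted p under 0.05 and 1 called by DESeq2, median -0.50). The median of -0.20 ran from -0.39 without day 10 library 2 to -0.02 without day 8 library 2. The 2 rises became 1 in every Smad3CA omission except that of day 8 library 2. The falls numbered 1 and 2 without day 8 libraries 1 and 3. The 3 rises became 0, 1, 0 and 0 without control day 8 libraries 1 and 2 and control day 10 libraries 2 and 3. The difference had 1, 2 and 1 calls without control day 8 library 3, control day 10 library 1 and day 8 library 3. Lefty2, an inhibitor of Nodal that ESCs express, had 16.1, 21.4 and 23.4 on day 8 and 75.7, 45.9 and 97.7 on day 10. All day 10 libraries were above day 8, library 3 most (log2 fold change 1.85, SE 0.30, adjusted p = 1.9e-04). Ctgf, a matrix-associated growth factor, went from 37.1, 61.9 and 24.2 to 70.1, 83 and 72.9, with the days apart (log2 fold change 0.87, SE 0.26, adjusted p = 0.042). The call of Ctgf was lost without day 8 libraries 1 and 3 and day 10 libraries 1, 2 and 3 (adjusted p 0.12, 0.15, 0.079, 0.15 and 0.088). Thbs1, a target that releases latent TGF-beta, had 360, 333 and 198 on day 8 and 150, 187 and 134 on day 10, lower on day 10 in every library but not called (log2 fold change -0.91, SE 0.29, adjusted p = 0.061). In control cells Thbs1 was 312, 331 and 588 on day 8 and 328, 888 and 836 on day 10, and the difference between the series was not called (log2 difference -1.64, adjusted p = 0.069). Of the 4 Id genes, targets of the BMP branch, 0 were called by edgeR (2 at an unadjusted p under 0.05 and 0 called by DESeq2, median 0.51, beside 0.69 in control cells) and 1 with DESeq2's size factors in edgeR. Id1 came nearest, with 22.9, 24.5 and 61.4 on day 8 and 65.9, 72.1 and 69 on day 10 and the days apart (adjusted p = 0.052).

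The palindrome GTCTAGAC, a sequence that Smad3 and Smad4 are known to bind, was in 0.213% of 32851 promoters on either strand. Of the 7601 matched promoters of tested genes 0.224% held it. It was in 2 of 173 matched promoters of genes that rose (1.16%) and in 0 of 191 of genes that fell. The promoters that held it belong to Psmb5, a catalytic subunit of the proteasome, and Sh3gl2, an endocytic protein of neurons, which were chosen for the motif. Psmb5 had 282, 230 and 550 on day 8 and 638, 614 and 510 on day 10 (log2 fold change 0.74, SE 0.21, adjusted p = 0.036), with day 8 library 3 inside the range of day 10. Sh3gl2 went from 0, 3.06 and 3.23 to 14, 21.8 and 11.7, with the days apart (log2 fold change 2.91, SE 0.73, adjusted p = 0.015). Psmb5 lost its call without day 8 libraries 1 and 2 and day 10 libraries 1, 2 and 3 (adjusted p 0.16, 0.24, 0.12, 0.11 and 0.052), and Sh3gl2 without day 8 library 1 and day 10 library 2 (adjusted p 0.084 and 0.1). The promoters are shown with the palindrome in capitals, Psmb5 at chr14:54617946-54618245, minus strand and Sh3gl2 at chr4:85205206-85205505, plus strand.
Psmb5: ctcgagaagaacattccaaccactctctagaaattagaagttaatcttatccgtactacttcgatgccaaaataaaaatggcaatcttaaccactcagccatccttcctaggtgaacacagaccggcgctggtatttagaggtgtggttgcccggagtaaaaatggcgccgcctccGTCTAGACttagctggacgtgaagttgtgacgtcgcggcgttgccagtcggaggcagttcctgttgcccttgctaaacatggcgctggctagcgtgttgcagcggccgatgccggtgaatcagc
Sh3gl2: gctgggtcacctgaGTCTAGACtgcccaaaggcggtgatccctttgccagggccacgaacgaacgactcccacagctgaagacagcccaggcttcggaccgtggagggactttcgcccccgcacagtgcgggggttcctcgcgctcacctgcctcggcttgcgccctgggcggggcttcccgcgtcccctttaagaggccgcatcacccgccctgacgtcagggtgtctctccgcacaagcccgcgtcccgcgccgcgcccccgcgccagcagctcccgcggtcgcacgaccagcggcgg

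Matrix genes of fibroblasts had mostly negative changes in Smad3CA cells and mostly positive ones in control cells, where day 10 library 1 stood apart. Of 24 tested genes 0 rose and 3 fell (12.5% called, beside 4.85% of all genes), 18 had a negative change and the median was -0.29 (-0.10 and -0.16 without day 8 library 2 and day 10 library 3). In control cells 1 rose, 0 fell and 20 of the 24 had a positive change (median 0.53). The difference between the series was negative for 22 of the 24 genes (median -0.92), although 0 passed the test of that difference by edgeR (12 at an unadjusted p under 0.05 and 2 called by DESeq2). The control median was 0.81, 0.29 and 0.35 without control day 10 libraries 1, 2 and 3. Its 1 rise became 9 without control day 10 library 1, 3 without control day 8 library 3 and 0 without each other control library. The difference was called for 7, 1 and 2 genes without control day 10 library 1 and day 8 libraries 1 and 3. From day 6 to day 8 the same genes had 5 rises and 0 falls in Smad3CA cells (median 0.56). Fibrillin-1 (Fbn1), the scaffold of elastic fibres, had 155, 251 and 141 on day 8 and 93.9, 92.8 and 83.3 on day 10. Every day 10 library was below every day 8 library, among which library 2 was highest (log2 fold change -1.01, SE 0.22, adjusted p = 0.0036), and the call was lost without day 8 library 2 (adjusted p = 0.073, 8.0e-05 to 0.073 over 14 alternatives). Fibulin-2 (Fbln2) fell from 161, 262 and 226 to 119, 125 and 132, again without overlap (log2 fold change -0.78, SE 0.20, adjusted p = 0.02). Col5a1, which starts collagen fibrils, fell from 27.8, 44.7 and 21 to 9.81, 16.4 and 7.81 (log2 fold change -1.43, SE 0.42, adjusted p = 0.042). Fbln2 lost its call without day 8 library 2 and day 10 libraries 1, 2 and 3 (adjusted p 0.13, 0.086, 0.077 and 0.057). Col5a1 lost it without day 8 libraries 1 and 2 and day 10 libraries 1, 2 and 3 (adjusted p 0.054, 0.23, 0.14, 0.055 and 0.17). The main fibrillar collagens were not called, with log2 fold changes of -0.41, -0.54 and -0.06 for Col1a1, Col1a2 and Col3a1 (adjusted p 0.48, 0.14 and 0.94). Decorin (Dcn) had 942, 778 and 681 on day 8 and 750, 673 and 635 on day 10 with overlapping days (adjusted p = 0.57).

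Transcription factors and surface proteins of mesenchyme gave 0 calls among 12 tested by edgeR (4 at an unadjusted p under 0.05 and 0 called by DESeq2), with a median of -0.43 (-0.38 with 1 gene at its bound) beside 0.17 in control cells (0.14 at the bound). The control median changed sign with single libraries, to 0.41, -0.08 and -0.02 without control day 10 libraries 1, 2 and 3. It was 0.10 and 0.28 without control day 8 libraries 1 and 3. Among 11 tested contractile genes 1 rose and 1 fell (18.2% called, beside 4.85% of all genes, median -0.08), and in control cells 1 rose and 0 fell (median 0.29). The median of -0.08 ran from -0.17 without day 8 library 1 to 0.13 without day 10 library 3. With DESeq2's size factors in edgeR 0 fell in Smad3CA cells. The control median became 0.07 and 0.14 without control day 8 library 1 and control day 10 library 2. The control rises numbered 0 without control day 8 libraries 1 and 3 and control day 10 libraries 2 and 3. They were 2 without control day 10 library 1. Calponin 2 (Cnn2), which binds actin, rose from 35.2, 39.8 and 49.2 to 116, 96.1 and 89.8. Each library of day 10 was above each of day 8 (log2 fold change 1.29, SE 0.24, adjusted p = 7.1e-04). The myosin light chain Myl6 fell from 653, 850 and 720 to 558, 536 and 421, without overlap (log2 fold change -0.55, SE 0.17, adjusted p = 0.046), and lost its call without day 8 library 2 and day 10 libraries 1, 2 and 3 (adjusted p 0.2, 0.079, 0.095 and 0.22). Smooth muscle actin (Acta2), a classical target of TGF-beta, had 188, 237 and 277 on day 8 and 172, 123 and 141 on day 10, lower on day 10 in every library but not called (adjusted p = 0.11). It stood far below the MEF mean of 20303 ± 4060 (SD, n = 3).

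Interferon-stimulated genes, which cells switch on in answer to viral RNA and DNA, rose in part in Smad3CA cells. Of 42 tested genes 5 rose and 1 fell (14.3% called, beside 4.85% of all genes, median 0.31, but 0.79, 0.20, 0.47 and 0.48 without day 8 libraries 1 and 2 and day 10 libraries 2 and 3), whereas in control cells 22 rose, 0 fell and all 42 had a positive change (median 1.21). The 5 rises became 9, 2, 2 and 3 without day 8 libraries 1 and 2 and day 10 libraries 1 and 2. The 22 became 6, 12, 10 and 12 without control day 8 libraries 1 and 2 and control day 10 libraries 2 and 3. The difference between the series was negative for 36 of the 42 genes (median -0.66, but -0.42, -1.0 and -0.39 without control day 8 libraries 1 and 3 and day 8 library 1), and 1, Ifitm2, passed the test of that difference. From day 6 to day 8 the same genes had 12 rises and 0 falls in Smad3CA cells (median 1.17, or 0.91 with 5 genes at their bound). Ifitm3, which blocks virus entry, is an example. It had 942, 753 and 731 on day 8 and 829, 748 and 685 on day 10 in Smad3CA cells, with overlap and no call (adjusted p = 0.85). Control cells had 871, 1200 and 1688 on day 8 and 2388, 3080 and 2976 on day 10, apart between the days (log2 fold change 1.17, SE 0.21, adjusted p = 7.8e-04), and the difference between the series was not called (log2 difference -1.26, adjusted p = 0.056).

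The members called in Smad3CA cells included Ifitm2, a relative of Ifitm3, which fell from 461, 726 and 425 to 318, 267 and 208. All day 10 libraries were below day 8, where library 2 was highest (log2 fold change -1.02, SE 0.20, adjusted p = 0.0013). Control cells had 420, 462 and 476 on day 8 and 470, 553 and 571 on day 10 (adjusted p = 0.65). Its difference between the series (log2 difference -1.25, adjusted p = 0.041) lost its call without control day 8 libraries 1, 2 and 3, control day 10 libraries 2 and 3, day 8 library 2 and day 10 libraries 1, 2 and 3 (adjusted p 0.15, 0.069, 0.052, 0.1, 0.11, 0.14, 0.051, 0.086 and 0.13). Ifi27l2a rose from 9.89, 4.9 and 6.46 to 49.1, 78.6 and 75.5 and Ifi27 from 32.1, 15.9 and 25.8 to 72.9, 62.3 and 62.5, each without overlap (log2 fold changes 3.24 and 1.42, adjusted p 5.4e-04 and 0.0012). These genes overlap on chromosome 12 in the annotation, so their reads may not be fully separated. Oas1a, which senses double-stranded RNA, went from 8.03, 3.06 and 6.46 to 30.8, 25.1 and 15.6 and Oas2 from 2.47, 0 and 4.04 to 28, 15.3 and 5.21 (log2 fold changes 2.02 and 2.91, adjusted p 0.016 and 0.015). Ifi35 went from 139, 80.3 and 115 to 231, 187 and 141 (log2 fold change 0.74, SE 0.23, adjusted p = 0.047). In the Oas genes and Ifi35 day 10 library 1 was highest and library 3 lowest, with no overlap between the days. Oas1a lost its call without day 8 library 2 and day 10 libraries 1 and 2 (adjusted p 0.091, 0.086 and 0.058). Oas2 lost it without day 8 library 2 and day 10 library 1 (adjusted p 0.083 and 0.13), and Ifi35 without day 8 libraries 2 and 3 and day 10 libraries 1 and 2 (adjusted p 0.25, 0.059, 0.24 and 0.12).

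**Figure D3:**
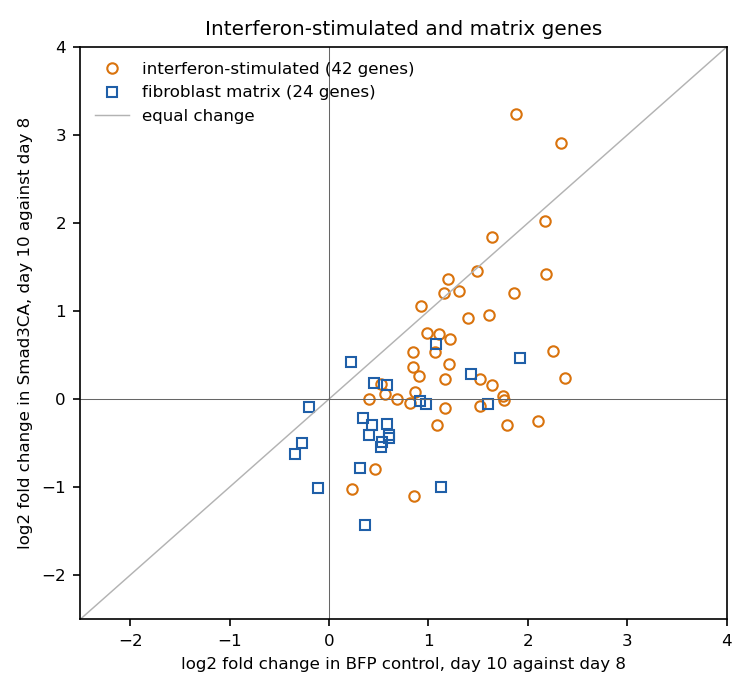
log2 fold change from day 8 to day 10 of each interferon-stimulated gene (circles, 42) and fibroblast matrix gene (squares, 24) in BFP control cells (horizontal axis) and in Smad3CA cells (vertical axis), with a line of equal change. Most genes lie below the line, 36 of 42 and 22 of 24.

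Genes of antigen presentation by MHC class I had 1 rise and 0 falls among 10 tested (10% called, beside 4.85% of all genes). The median was 0.18, but -0.05 without day 10 library 1. In control cells 2 rose and 0 fell (median 0.51). The 2 became 1 without control day 8 libraries 1 and 2 and control day 10 library 2. Psme1, a subunit of the proteasome activator PA28, rose from 39.6, 31.2 and 42 to 91.1, 126 and 72.9. The days lay apart with library 2 highest on day 10 (log2 fold change 1.38, SE 0.24, adjusted p = 3.7e-04). The interferon response element, searched as GAAA followed after any 2 bases by GAAA, was in 3.44% of 32851 promoters on either strand and in 17 of the 31 matched promoters of tested interferon-stimulated genes (54.8%). Of the 7601 matched promoters of all tested genes 3.74% held this element. It was in 10 of 173 promoters of genes that rose (5.78%) and in 8 of 191 of genes that fell (4.19%). Promoters with it are shown for a gene that rose in each list, Oas1a at chr5:120907476-120907775, minus strand, with overlapping matches, and Psme1 at chr14:55578244-55578543, plus strand, and for Ifitm2, which fell, at chr7:140955912-140956211, minus strand. Capitals mark the element, in Psme1 on the other strand.
Oas1a: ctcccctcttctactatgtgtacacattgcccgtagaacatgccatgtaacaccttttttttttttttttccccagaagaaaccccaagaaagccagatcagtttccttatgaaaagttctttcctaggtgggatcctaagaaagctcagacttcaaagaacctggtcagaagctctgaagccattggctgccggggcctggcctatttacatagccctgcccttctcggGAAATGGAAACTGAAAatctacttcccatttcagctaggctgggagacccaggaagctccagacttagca
Psme1: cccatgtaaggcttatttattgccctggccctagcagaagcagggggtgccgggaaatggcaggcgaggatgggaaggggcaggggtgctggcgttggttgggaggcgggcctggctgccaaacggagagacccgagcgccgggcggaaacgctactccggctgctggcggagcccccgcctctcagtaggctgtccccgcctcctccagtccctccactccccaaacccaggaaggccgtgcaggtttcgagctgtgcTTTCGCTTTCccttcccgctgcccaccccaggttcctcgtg
Ifitm2: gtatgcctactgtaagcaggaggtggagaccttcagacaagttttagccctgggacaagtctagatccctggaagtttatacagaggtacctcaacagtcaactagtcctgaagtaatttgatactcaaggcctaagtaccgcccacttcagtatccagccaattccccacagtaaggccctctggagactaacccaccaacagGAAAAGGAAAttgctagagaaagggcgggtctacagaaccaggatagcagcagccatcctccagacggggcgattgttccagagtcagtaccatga

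Among 15 tested chemokines and cytokines 0 rose and 1 fell (6.67% called, beside 4.85% of all genes, median 0.09). In control cells 5 rose and 0 fell (median 0.61). That median was 0.40, 0.98 and 0.92 without control day 8 libraries 2 and 3 and control day 10 library 1. The 5 rises were 3, 3 and 3 without control day 8 library 2 and control day 10 libraries 2 and 3. From day 6 to day 8 in Smad3CA cells 7 had risen and 0 fallen. The difference between the series was called for 2 genes, Ccl7 and Cxcl5. Ccl7, which attracts monocytes, fell from 978, 1602 and 840 to 551, 771 and 624 in Smad3CA cells. The days did not overlap and day 8 library 2 was highest (log2 fold change -0.81, SE 0.21, adjusted p = 0.016). In control cells Ccl7 rose, from 911, 712 and 941 to 1220, 1894 and 1778 (log2 fold change 0.93, SE 0.20, adjusted p = 0.0057), and the difference between the series was called (log2 difference -1.74, adjusted p = 0.0014). The fall in Smad3CA cells lost its call without day 8 library 2 and day 10 libraries 1 and 3 (adjusted p 0.22, 0.11 and 0.07). Ccl2 had 430, 483 and 451 on day 8 and 447, 436 and 337 on day 10 in Smad3CA cells, with overlap (adjusted p = 0.76), and rose in control cells from 735, 629 and 725 to 957, 1860 and 1999 (difference not called, log2 difference -1.36, adjusted p = 0.054). Cxcl5, which attracts neutrophils, had 80.3, 128 and 77.5 on day 8 and 129, 80.8 and 95.1 on day 10 with overlap, while control cells went from 36.2, 68.6 and 83.5 to 173, 211 and 279 (log2 fold change 1.79, SE 0.27, adjusted p = 7.0e-05). The difference (log2 difference -1.70, adjusted p = 0.044) lost its call without control day 8 libraries 1 and 2, control day 10 libraries 2 and 3, day 8 library 2 and day 10 libraries 1, 2 and 3 (adjusted p 0.16, 0.065, 0.086, 0.17, 0.14, 0.051, 0.13 and 0.11).

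Of 11 tested S100 calcium-binding proteins 2 rose and 1 fell (27.3% called, beside 4.85% of all genes, median 0.18, or 0.20 with 1 gene at its bound). Control cells had 2 rises and 0 falls (median 0.24). S100a1, which is best known from heart muscle, had 320, 314 and 298 on day 8 and 140, 163 and 173 on day 10. The days lay far apart with little spread (log2 fold change -0.96, SE 0.16, adjusted p = 2.9e-04), while control cells had 219, 226 and 261 on day 8 and 296, 269 and 231 on day 10 and no call (adjusted p = 0.69). Its difference between the series (log2 difference -1.13, adjusted p = 0.015) lost its call without control day 8 library 1, control day 10 library 2 and day 10 library 1 (adjusted p 0.099, 0.056 and 0.12). S100a8, of neutrophils and inflamed epithelia, rose from 3.09, 4.9 and 10.5 to 42.1, 22.9 and 124, highest in library 3 (log2 fold change 3.38, SE 0.71, adjusted p = 0.0032), and lost its call without day 10 library 3 (adjusted p = 0.088, 1.2e-12 to 0.088 over 14 alternatives). S100a14, an epithelial member, rose from 14.2, 30 and 34.7 to 77.1, 59 and 52.1 (log2 fold change 1.26, SE 0.36, adjusted p = 0.037), and lost its call without day 8 libraries 1 and 2 and day 10 libraries 1, 2 and 3 (adjusted p 0.17, 0.071, 0.16, 0.086 and 0.061).

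Of 28 tested DNA replication genes edgeR called 1 as higher and 0 as lower (3.57%, beside 4.85% of all genes), 3 as higher with DESeq2's size factors, and 23 had a positive change (12 at an unadjusted p under 0.05 and 1 called by DESeq2, median 0.38), beside 4 rises in control cells (median 0.34). The 1 gene was thymidine kinase (Tk1), at 42.6, 36.8 and 47.6 on day 8 and 98.1, 122 and 71.6 on day 10. Its days lay apart (log2 fold change 1.21, SE 0.26, adjusted p = 0.0038), and the call was lost without day 10 library 2 (adjusted p = 0.055, 8.1e-04 to 0.055 over 14 alternatives). Of 25 tested mitotic genes 2 rose and 1 fell (12% called, median 0.11), beside 0 called in control cells by edgeR, where 2.4% of all genes were (3 at an unadjusted p under 0.05, median 0.21). Ube2c, the ubiquitin-conjugating enzyme of the anaphase-promoting complex, had 223, 138 and 498 on day 8 and 655, 699 and 564 on day 10. Every day 10 library was above every day 8 library, of which library 3 came closest (log2 fold change 1.17, SE 0.23, adjusted p = 0.0018). The checkpoint kinase Bub1 rose from 58.7, 55.1 and 54.9 to 82.7, 93.9 and 93.8, and Cdc20, an activator of the same complex, fell from 102, 150 and 71.8 to 56.1, 60.1 and 66.4 (log2 fold changes 0.69 and -0.82, adjusted p 0.034 and 0.031). Bub1 lost its call without day 8 libraries 1, 2 and 3 and day 10 libraries 1, 2 and 3 (adjusted p 0.061, 0.1, 0.056, 0.056, 0.11 and 0.1) and Cdc20 without day 8 library 2 and day 10 libraries 1, 2 and 3 (adjusted p 0.28, 0.12, 0.1 and 0.067). Of 11 tested cyclins and inhibitors 0 rose and 2 fell (18.2% called, median -0.10, beside 0.15 and 0 calls by edgeR in control cells). The median of -0.10 ran from -0.24 without day 8 library 1 to 0.11 without day 8 library 3. The 0.15 ran from -0.06 without control day 10 library 2 to 0.21 without control day 8 library 3. The 2 falls became 1, 1, 0 and 1 without day 8 libraries 1 and 2 and day 10 libraries 2 and 3. Mdm2, the ligase that degrades p53, fell from 268, 291 and 157 to 142, 85.2 and 130, and cyclin D2 (Ccnd2) from 399, 441 and 375 to 310, 277 and 249, both without overlap (log2 fold changes -1.01 and -0.53, adjusted p 0.0058 and 0.032). Mdm2 lost its call without day 10 library 2 (adjusted p = 0.077, 3.5e-05 to 0.077 over 14 alternatives) and Ccnd2 without day 8 libraries 1 and 2 and day 10 libraries 2 and 3 (adjusted p 0.06, 0.12, 0.1 and 0.15).

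Several genes outside the lists were among the 15 largest rises or falls of genes that lay apart between the days and had a mean of 20 or more on a day. Fam25c, a small protein of unknown function, rose from 7.42, 12.9 and 21 to 123, 151 and 121, with the days far apart (log2 fold change 3.29, SE 0.32, adjusted p = 5.1e-09), and in control cells from 7.92, 10.6 and 4.18 to 76.5, 64.5 and 134. Crxos1_loc2, a copy of a homeobox gene, rose from 8.65, 1.23 and 3.23 to 19.6, 41.5 and 61.2 (log2 fold change 3.18, SE 0.71, adjusted p = 0.0068), and lost its call without day 10 library 3 (adjusted p = 0.067, 1.1e-05 to 0.26 over 14 alternatives). Nin, which anchors microtubules at the centrosome, fell from 57.5, 53.3 and 33.1 to 14, 6.55 and 11.7, with the days apart (log2 fold change -2.18, SE 0.32, adjusted p = 4.0e-05). It also fell in control cells, from 104, 79.1 and 69.2 to 34.6, 51.4 and 35.8 (log2 fold change -1.04, SE 0.25, adjusted p = 0.015). Bglap2, an osteocalcin gene of osteoblasts, fell from 51.9, 79 and 133 to 35, 17.5 and 15.6 (log2 fold change -1.96, SE 0.38, adjusted p = 0.0012), whereas control cells had 66.8, 101 and 70.4 on day 8 and 80.2, 119 and 67.8 on day 10 (difference -2.12, adjusted p = 0.054). The nucleotidase-like Nt5dc3 fell from 22.9, 41.7 and 29.9 to 9.81, 10.9 and 3.91 (log2 fold change -1.90, SE 0.39, adjusted p = 0.0022). Rgs2, which limits G protein signals, fell from 53.2, 44.1 and 33.1 to 21, 10.9 and 10.4 (log2 fold change -1.64, SE 0.35, adjusted p = 0.0032), and the transcript 2410088K16Rik from 70.5, 29.4 and 69.4 to 18.2, 18.6 and 13 (log2 fold change -1.74, SE 0.33, adjusted p = 0.0011). That the days lie apart in these rises and falls follows from how the genes were chosen. Panx1, a membrane channel, fell from 31.5, 30.6 and 36.3 to 12.6, 6.55 and 13 and the amino acid transporter Slc16a10 from 21, 33.1 and 13.7 to 7.01, 3.28 and 5.21 (adjusted p 0.0085 and 0.0049). Panx1 lost its call without day 10 library 2 (adjusted p = 0.086, 0.0012 to 0.086 over 14 alternatives) and Slc16a10 without day 10 library 2 (adjusted p = 0.052, 8.4e-04 to 0.052 over 14 alternatives). Besides Hs6st2, described below, the other falls chosen so, Actr8, Adh1, Eif5a2, Fez2, Rab3ip, Snx8 and Sox11, lay between -2.07 and -1.52 on the log2 scale. Adh1, an alcohol dehydrogenase, lost its call without day 8 libraries 1 and 2 and day 10 libraries 1 and 3 (adjusted p 0.097, 0.092, 0.18 and 0.16). Actr8 lost it without day 8 libraries 2 and 3 and day 10 libraries 2 and 3 (adjusted p 0.09, 0.063, 0.16 and 0.15), and Eif5a2 without day 8 library 1 and day 10 libraries 2 and 3 (adjusted p 0.087, 0.092 and 0.14). Fez2 lost it without day 8 library 1 and day 10 library 2 (adjusted p 0.077 and 0.13), and Rab3ip without day 8 libraries 1 and 2 and day 10 libraries 1 and 2 (adjusted p 0.086, 0.071, 0.13 and 0.1). Snx8 lost it without day 8 libraries 2 and 3 and day 10 libraries 2 and 3 (adjusted p 0.054, 0.096, 0.09 and 0.13), and Sox11 without day 8 library 2 and day 10 libraries 2 and 3 (adjusted p 0.16, 0.097 and 0.13).

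Several further genes fell in Smad3CA cells. Slc25a17, a peroxisomal carrier, fell in Smad3CA cells from 252, 287 and 207 to 118, 116 and 111. The days were far apart (log2 fold change -1.11, SE 0.18, adjusted p = 1.8e-04), while control cells had 172, 197 and 170 on day 8 and 264, 195 and 217 on day 10, and the difference was called (log2 difference -1.44, adjusted p = 0.0021) except without both day 10 library 1 and control day 8 library 1 (adjusted p = 0.062, 1.4e-05 to 0.062 over 20 alternatives). Ctsl, a lysosomal protease, fell from 588, 534 and 421 to 219, 336 and 336 (log2 fold change -0.78, SE 0.18, adjusted p = 0.007), and control cells had 502, 509 and 439 on day 8 and 607, 785 and 759 on day 10 (difference -1.36, adjusted p = 0.0052). The fall of Ctsl lost its call without day 10 library 1 (adjusted p = 0.089, 0.0011 to 0.1 over 14 alternatives), and so did the difference (adjusted p = 0.057 without that library). Hs6st2, an enzyme that sulfates heparan, fell from 38.3, 33.1 and 32.3 to 14, 8.74 and 11.7 (log2 fold change -1.60, SE 0.31, adjusted p = 0.0014), beside 28.3, 24.3 and 28 on day 8 and 21, 47.8 and 40.5 on day 10 in control cells. The difference for Hs6st2 (log2 difference -2.04, adjusted p = 0.015) lost its call without control day 10 libraries 2 and 3 and day 10 libraries 2 and 3 (adjusted p 0.092, 0.068, 0.086 and 0.057). Sec11a, of the signal peptidase, fell from 475, 623 and 432 to 262, 271 and 234 (log2 fold change -0.99, SE 0.17, adjusted p = 3.0e-04), and Atp6v0e, of the vacuolar proton pump, from 993, 978 and 887 to 571, 613 and 540 (log2 fold change -0.72, SE 0.15, adjusted p = 0.0034). In control cells Sec11a had 350, 378 and 351 on day 8 and 441, 361 and 345 on day 10, and Atp6v0e had 703, 661 and 621 on day 8 and 849, 716 and 743 on day 10 (adjusted p 0.86 and 0.55). Leaving out any 1 of the 12 libraries of these days took the call from the difference of Sec11a, except day 8 libraries 1 and 3, and from that of Atp6v0e, except day 8 library 3 (adjusted p 0.061 to 0.15 and 0.069 to 0.15).

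Transcripts of brain cells were highest in 2 libraries. Mbp, the myelin basic protein, had 19.2, 6.13 and 25.8 on day 8 and 520, 33.9 and 19.5 on day 10 in Smad3CA cells and 1273, 147 and 184 on day 8 and 11.1, 20.3 and 12.2 on day 10 in control cells. Day 10 library 1 and control day 8 library 1 stood far above the rest, and without them the days of Smad3CA cells overlapped. The 9 oligodendrocyte markers, a list written after these values were seen, summed to 40.8, 19 and 66.2 on day 8 and 677, 61.2 and 43 on day 10, and to 1720, 223 and 239 and 48.1, 70.5 and 47.1 in control cells. Mbp led the list and Olig2 was at 0 in all 6 Smad3CA libraries. The 6 choroid plexus markers, led by Ttr, summed to 20.4, 3.06 and 16.1 and 509, 8.74 and 19.5, and to 1242, 162 and 140 and 3.7, 14.3 and 28.3 in control cells. Control day 8 libraries 2 and 3 thus also lay above every control day 10 library in Mbp and both sums. The 5 astrocyte markers summed to 21, 0 and 4.04 and 57.5, 9.83 and 9.11. Both wells of day 10 library 1 held the excess, with an Mbp level of 364 and 373 in counts per library scaled to the same total (CPM), and so did the 3 wells of control day 8 library 1, with 789 to 937. The cells had been sorted for mOrange, and the source of these reads was not tested.

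In Smad3CA cells calls of these genes rested on day 10 library 1. Mbp (log2 fold change 3.50, adjusted p = 0.003) lost its call without day 10 library 1 (adjusted p = 0.65, 7.7e-40 to 0.65 over 14 alternatives), and Enpp2 (log2 fold change 4.82, adjusted p = 0.0044) without day 10 library 1 (adjusted p = 0.8, 6.7e-20 to 0.8 over 13 alternatives). Ttr, at 17.3, 0.613 and 10.5 on day 8 and 350, 0 and 0 on day 10, was called as higher (log2 fold change 3.58, adjusted p = 0.023) and had a log2 fold change of −6.40 without day 10 library 1. Its call was lost without day 8 library 2 and day 10 library 1 (adjusted p 0.12 and 0.22). Of 27 neural genes 14 were tested, and 2 rose, Mbp among them, while Sox11 fell (21.4% called, where 4.85% of all genes were). The median was -0.06, beside 0 rises, 3 falls and -0.69 in control cells. The median of -0.06 ran from -0.11 without day 8 library 1 to 0.22 without day 8 library 3. The 2 rises became 1, 1 and 0 without day 8 libraries 1 and 2 and day 10 library 1. The 3 control falls became 1, 2 and 2 without control day 8 library 1 and control day 10 libraries 2 and 3. Sox11, a factor of neural progenitors, went from 21.6, 32.5 and 14.5 to 11.2, 7.65 and 5.21 (log2 fold change -1.52, SE 0.41, adjusted p = 0.026), with library 3 of day 10 lowest. Without day 10 library 1 and control day 8 library 1, a choice made after the data were seen, 251 genes were called in place of 497, 230 of them in common, and the difference between the series was called for 4 genes in place of 19, 2 of them in common.

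**Figure D4:**
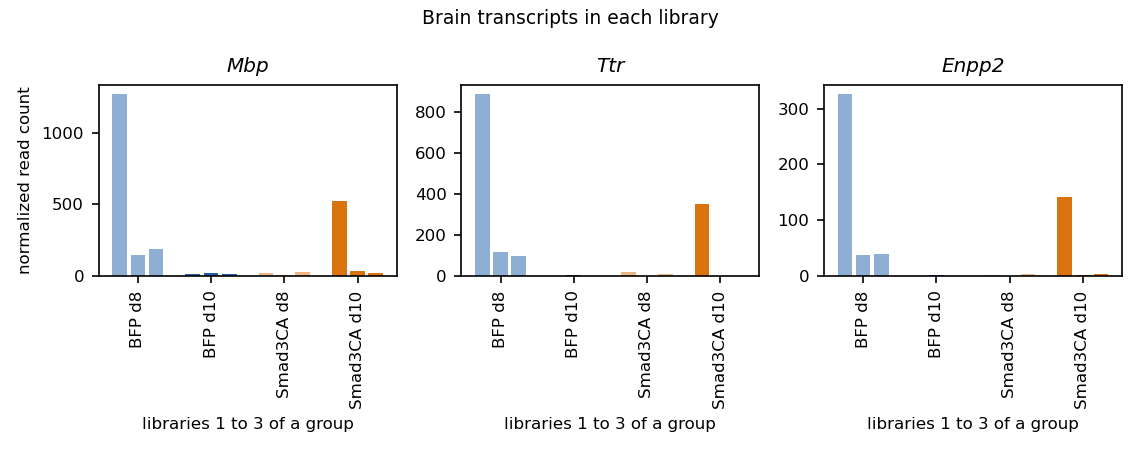
Normalized read count (vertical axis) of Mbp, Ttr and Enpp2 in each library (bars, replicates 1 to 3) of BFP control and Smad3CA cells on day 8 (light) and day 10 (dark). For Mbp the highest bars are control day 8 library 1 at 1273 and Smad3CA day 10 library 1 at 520.

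Markers of other cells that a culture of fibroblasts could hold had sums that overlapped between the days. The 10 macrophage markers summed to 1266, 1404 and 2526 on day 8 and 1019, 950 and 1673 on day 10, with Lyz2 the most abundant, and in control cells to 2699, 1718 and 1651 and 700, 2970 and 2787. Of 9 tested genes edgeR called 0 (1 at an unadjusted p under 0.05 and 0 called by DESeq2). The median was -0.53 in Smad3CA and 0.33 in control cells (-0.01, 0.70, 0.08 and -0.18 without control day 8 library 3 and control day 10 libraries 1, 2 and 3), with 8 of 9 genes lower on day 10 in Smad3CA cells and a negative difference between the series for 8 (median -0.88), called for 0 (1 at an unadjusted p under 0.05 and 0 called by DESeq2). Lyz2 had 1079, 1096 and 2204 on day 8 and 848, 766 and 1458 on day 10, highest in library 3 on both days. The mast cell and basophil markers found in the file, 3 of 8, summed to 24.7, 34.3 and 38.7 and 15.4, 20.8 and 36.5, led by Kit. The 8 endothelial markers, led by Tek, summed to 17.3, 14.7 and 10.5 and 32.2, 16.4 and 13, with Cdh5 and Emcn at 0. The 6 neuron markers summed to 2323, 1838 and 4874 and 3178, 2978 and 2214, nearly all of it Stmn2, with Rbfox3 at 0. The 6 primitive endoderm markers, led by Dab2, summed to 24.7, 29.4 and 25 and 16.8, 25.1 and 19.5, with Sox7 at 0. The part of these cells in the results above was not tested.

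The remaining lists had at most 2 calls each, from 5.88% of tested genes in oxidative phosphorylation to 18.2% in surface markers, beside 4.85% of all genes. Surface markers of reprogramming had 1 rise and 1 fall among 11 tested (median 0.24, 0.39 in control cells). The 0.24 became 0.13 without day 8 library 3. The 0.39 became 0.23, 0.02 and 0.26 without control day 8 library 2 and control day 10 libraries 2 and 3. Ly6a (Sca1) rose from 63.7, 90.7 and 39.6 to 96.7, 134 and 146, and Cd44, which marks cells that have not advanced, fell from 379, 303 and 245 to 199, 192 and 201 (log2 fold changes 0.96 and -0.65, adjusted p 0.044 and 0.016). Ly6a lost its call without day 8 libraries 1 and 3 and day 10 libraries 2 and 3 (adjusted p 0.099, 0.15, 0.13 and 0.16) and Cd44 without day 8 library 1 and day 10 libraries 1, 2 and 3 (adjusted p 0.12, 0.057, 0.074 and 0.055). Feedback genes of FGF signalling had 1 rise among 9 tested (median 0.70, 1.01 in control cells, or 0.79 with 2 genes at their bound). That gene, Etv5, went from 9.89, 26.3 and 10.5 to 35, 43.7 and 66.4 (adjusted p = 0.025), and its call was lost without day 8 libraries 1 and 3 and day 10 libraries 2 and 3 (adjusted p 0.1, 0.065, 0.056 and 0.15). Cholesterol synthesis had 1 rise, Mvk, and 1 fall among 21 tested (median -0.11, 0.12 in control cells). Mvk lost its call without day 8 library 2 and day 10 libraries 2 and 3 (adjusted p 0.1, 0.062 and 0.081). Oxidative phosphorylation had 1 rise, Cox5a, and 1 fall, Atp5g1, among 34 tested nuclear genes (median -0.21, 0.01 in control cells). Cox5a lost its call without day 8 libraries 1 and 2 and day 10 libraries 1, 2 and 3 (adjusted p 0.18, 0.24, 0.14, 0.05 and 0.099) and Atp5g1 without day 8 library 2 and day 10 libraries 1, 2 and 3 (adjusted p 0.29, 0.12, 0.082 and 0.11). Nucleolar ribosome biogenesis had 0 rises and 2 falls, Polr1b and Rrp12, among 20 tested (median -0.20, -0.28 in control cells). Polr1b lost its call without day 8 libraries 1, 2 and 3 and day 10 libraries 1 and 2 (adjusted p 0.064, 0.11, 0.054, 0.14 and 0.23) and Rrp12 without day 8 libraries 2 and 3 and day 10 libraries 1, 2 and 3 (adjusted p 0.11, 0.053, 0.18, 0.058 and 0.09).

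In Smad3CA cells edgeR called 0 genes of serine and one-carbon metabolism among 14 tested (4 at an unadjusted p under 0.05 and 0 called by DESeq2, median -0.09, -0.17 in control cells) and 0 immediate early genes among 14 (4 at an unadjusted p under 0.05 and 0 called by DESeq2, median -0.04, -0.14 in control cells). It also called 0 genes of heat shock and the unfolded protein response among 17 (2 at an unadjusted p under 0.05 and 0 called by DESeq2, median -0.05, -0.13 in control cells) and 0 imprinted genes among 12 (4 at an unadjusted p under 0.05 and 0 called by DESeq2, median -0.26, 0.06 in control cells).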

How the data were processed

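The read counts per gene and well were deposited by the authors, whose processing notes name Bowtie 0.12.9, the mouse genome mm10 and DESeq2 1.6.3. Wells of 1 replicate were summed, and counts were normalized by TMM and tested by edgeR's quasi-likelihood fit over the 24 reprogramming libraries (8 groups, 10237 genes after filterByExpr), with Benjamini-Hochberg adjustment over all genes. Printed values are counts over DESeq2's size factors. The fit has no block, which is an alternative. The design text of the series record pairs replicates over days within a series. Deviations from group means correlated at −0.01, 0.001 and −0.086 for the 3 Smad3CA replicates and 0.038, −0.077 and −0.002 for control. Named genes are Smad3, Smad2, the MKOS genes, the 15 largest called changes in each direction without overlap and with a mean of 20 or more, called members of 32 lists with at most 4 others each, the 5 genes in each direction with the smallest p for the interaction, and members of 8 marker lists. The oligodendrocyte, choroid plexus and astrocyte lists were added after the data were seen. A few single genes are not reported here. Members and lists were chosen with earlier results of these data known. ESC-high and ESC-low lists rest on rlog means of ESC and MEF libraries. Symbols matched a RefSeq promoter for 7601 of 10237 tested genes. Reads are not molecules, so floors and intervals cover counting error only. Tools were R 4.3.3, edgeR 4.0.16, limma 3.58.1, DESeq2 1.42.0, Python 3.11.15, pandas 2.3.3, scipy 1.17.1 and matplotlib 3.10.9.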

Additional observations from a re-analysis of the deposited data

Results flagged for a closer look

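The change from day 8 to day 10 differed between Smad3CA cells and BFP control cells for 19 genes, by the interaction test of edgeR. For 6 genes it was more positive in Smad3CA cells, among them, on the log2 scale, by 12.92 for Enpp2, 11.42 for Ttr, 8.68 for Mbp, 8.34 for Kif5a and 4.05 for Atp1b1. Enpp2, Ttr, Mbp and Kif5a are genes of brain cells, in which day 10 library 1 and control day 8 library 1 stood highest. Some of these genes had few or no reads in some groups. How far such differences depend on the prior count of the fit was not tested. Kif5a, a kinesin of neurons, had 2.47, 0.613 and 3.23 on day 8 and 30.8, 3.28 and 3.91 on day 10 in Smad3CA cells and 61.1, 8.44 and 13.1 on day 8 and 0, 0 and 0.942 on day 10 in control cells. Atp1b1, a subunit of the sodium pump, had 5.56, 2.45 and 0.807 on day 8 and 22.4, 13.1 and 23.4 on day 10 in Smad3CA cells and 29.4, 8.44 and 5.37 on day 8 and 1.23, 5.97 and 7.54 on day 10 in control cells. Enpp2 lost its call without day 10 library 1 (adjusted p = 0.12, 3.4e-58 to 0.15 over 20 alternatives), Kif5a without day 10 library 1 (adjusted p = 0.12, 7.5e-09 to 0.12 over 19 alternatives) and Ttr without day 10 library 1 (adjusted p = 0.98, 3.8e-112 to 0.98 over 20 alternatives). Atp1b1 lost it without control day 8 library 1, control day 10 libraries 1, 2 and 3, day 8 library 2 and day 10 libraries 1 and 3 (adjusted p 0.26, 0.053, 0.092, 0.061, 0.11, 0.12 and 0.11). Without both libraries Ttr had a difference of -0.36. That of Mbp was called in all 19 alternatives with a p (at most 0.0026). The part of brain cells in these differences was not tested.

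For 13 genes the change was more negative in Smad3CA cells, by -1.74 for Ccl7, -1.44 for Slc25a17, -1.36 for Ctsl, -1.13 for S100a1, -2.04 for Hs6st2, -1.08 for Sec11a, -0.95 for Atp6v0e, -1.70 for Cxcl5 and -1.25 for Ifitm2. It was -1.99 for Itm2a, -3.71 for Ces1g, -3.95 for Mmp3 and -1.79 for Sgpl1. Atp1b1, Ces1g, Mmp3 and Sgpl1 were named after their values were seen. Itm2a, a membrane protein of chondrocytes and muscle, had 103, 119 and 125 on day 8 and 64.5, 65.5 and 39.1 on day 10 in Smad3CA cells and 58.9, 102 and 60.3 on day 8 and 77.8, 130 and 217 on day 10 in control cells. The protease Mmp3 had 47.6, 105 and 4.84 on day 8 and 26.6, 61.2 and 40.4 on day 10, and in control cells 11.3, 5.28 and 16.1 on day 8 and 72.8, 206 and 161 on day 10. Ces1g, a carboxylesterase, had 8.65, 11 and 9.69 on day 8 and 2.8, 1.09 and 2.6 on day 10, and in control cells 10.2, 14.8 and 14.3 on day 8 and 18.5, 66.9 and 32 on day 10. Sgpl1, which degrades sphingosine phosphate, had 61.8, 66.2 and 50 on day 8 and 26.6, 33.9 and 37.8 on day 10, and in control cells 35.1, 22.2 and 45.9 on day 8 and 60.5, 96.8 and 47.1 on day 10. Calls were lost for Ctsl without day 10 library 1 (adjusted p = 0.057, 1.6e-05 to 0.15 over 20 alternatives), and for S100a1 without control day 8 library 1, control day 10 library 2 and day 10 library 1 (adjusted p 0.099, 0.056 and 0.12). They were lost for Itm2a without control day 8 library 1, control day 10 library 3 and day 10 library 3 (adjusted p 0.09, 0.11 and 0.071), and for Hs6st2 without control day 10 libraries 2 and 3 and day 10 libraries 2 and 3 (adjusted p 0.092, 0.068, 0.086 and 0.057). Leaving out any 1 of the 12 libraries of these days took the call from Sec11a, except day 8 libraries 1 and 3, and from Atp6v0e, except day 8 library 3 (adjusted p 0.061 to 0.15 and 0.069 to 0.15). Cxcl5 lost it without control day 8 libraries 1 and 2, control day 10 libraries 2 and 3, day 8 library 2 and day 10 libraries 1, 2 and 3 (adjusted p 0.16, 0.065, 0.086, 0.17, 0.14, 0.051, 0.13 and 0.11), and Ifitm2 without control day 8 libraries 1, 2 and 3, control day 10 libraries 2 and 3, day 8 library 2 and day 10 libraries 1, 2 and 3 (adjusted p 0.15, 0.069, 0.052, 0.1, 0.11, 0.14, 0.051, 0.086 and 0.13). Ces1g lost it without control day 8 library 1, control day 10 library 2, day 8 library 2 and day 10 libraries 1, 2 and 3 (adjusted p 0.081, 0.12, 0.059, 0.057, 0.092 and 0.057). Mmp3 lost it without control day 8 libraries 1 and 2, control day 10 libraries 2 and 3, day 8 library 2 and day 10 libraries 1 and 3 (adjusted p 0.13, 0.098, 0.12, 0.096, 0.19, 0.15 and 0.092), and Sgpl1 without control day 8 libraries 1 and 2, control day 10 library 2, day 8 libraries 1 and 2 and day 10 libraries 1, 2 and 3 (adjusted p 0.14, 0.12, 0.17, 0.079, 0.11, 0.16, 0.092 and 0.071). With the replicates as a block all 19 differences were called.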

How the results depend on the processing

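The 497 genes called in Smad3CA cells became 236 with a fit on only the libraries compared, 154 at an adjusted p under 0.01 and 251 without both libraries highest in brain transcripts, the last added after the data were seen. Leaving out each library gave 225 to 684. The 19 differences between the series became 73 with DESeq2's Wald test, 133 with no filter on low counts, 8 with only the libraries compared, 29 with 2 wells per library, 52 at an adjusted p under 0.1, 4 without both libraries, and 7 to 107 with each library left out. With replicates as a block they became 40. The block changed the call of 1 of the 97 named called genes, and 38 of the 97 were called in every omission of a single library, with 56 to 82 called in each. Of the 97, 72 were still called with DESeq2's Wald test (92 had an adjusted p) and 66 with only the libraries compared (94 had one). With no filter 91 were still called and with 2 wells per library 88. Losses with these settings are mostly not given gene by gene above. The ESC-high median of 0.67 became 0.90 with the Wald test, 0.83 with no filter, 0.33 with the ESC lists made by edgeR and 1.29 with lists over 8-fold, and 0.63 to 0.76 with a library left out. The 56 ESC-high genes that rose became 33 with lists over 8-fold and 37 to 63 with a library left out. The 32 ESC-low genes that fell became 18 with only the libraries compared, 56 with lists by edgeR, 15 with lists over 8-fold and 13 to 44 with a library left out, and their median of −0.21 stayed between −0.25 and −0.13 in the omissions. The log2 fold change of Ttr ran from −6.40 without day 10 library 1 to 4.47 over the omissions and was −6.42 without both libraries, where its difference between the series was −0.36, against 12.73 at the highest of the single omissions. Over single genes and alternatives, 1451 values kept direction and call, 398 lost the call, 55 not called moved in sign, 3 gained a call and 3 reversed. The cause was not tested. Low depth on day 10, from 1008596 to 1349752 reads, limits what can be said of genes with few reads. Of the called genes 6 had 3 reads or fewer over day 8 and 9 over day 10.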
